A study of Mus musculus with 2 samples.

Results

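The 10 genes described here take part in removing methyl groups from DNA and from histones, or in setting and reading DNA methylation. They are Tet1, Tet2, Tet3, Gadd45a, Dnmt3l, Mbd2, Jmjd1c, Kdm2b, Kdm4c and Kdm6b. Their regions were taken from a list of 28141 differentially methylated regions made by the authors, wherever a region overlapped the RefSeq span of a gene or the 2 kb on either side of it. In all, 16 regions met this rule, at 8 of the 10 genes, while 29.5% of all protein-coding genes held a listed region. The genes were chosen by their listed regions in these same libraries, with the levels and directions known, so levels, directions and counts at these genes are given as a description and no test is made on them.

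The 2 libraries were compared by whole-genome bisulfite sequencing, 1 of PDGFRα+ (CD140+) cells and 1 of CD137+ cells, so differences have no replicate check and no p-value. Both cell types are adipose progenitors of C57BL/6 mice, taken from subcutaneous or visceral fat by magnetic sorting, and neither the depot behind each library nor the age or number of mice is stated. Both were grown, put through an adipogenic cocktail and then given 1 µM dexamethasone, a synthetic glucocorticoid, so the libraries share that treatment and no untreated library was compared. PDGFRα is a growth factor receptor of mesenchymal progenitors, and CD137, a receptor related to those of tumour necrosis factor, marks precursors of beige fat. Bisulfite converts unmethylated cytosines and leaves methylated ones. A region in which every cytosine was read as methylated therefore has a level of 1, and one with none has 0. How many reads stand behind a level is unknown, and no interval can be given. For cell identity only methylation was at hand, and it cannot settle the question. Pdgfra held 1 region, at 0.210 in PDGFRα+ against 0.769 in CD137+, and Tnfrsf9, the gene of CD137, held none. Of all listed regions 77.7% were lower in PDGFRα+, so the Pdgfra direction is the common one.

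TET enzymes oxidise methylated cytosine, after which base excision repair or dilution at replication can restore the unmodified base. Most histone lysine demethylases are JmjC proteins, which use iron and 2-oxoglutarate, as TET enzymes do, to oxidise methyl groups on lysines. Methylation of DNA at a promoter is commonly associated with low activity of the gene, while methylation inside a gene body has no fixed relation to it. Dnmt3l and Mbd2 are not demethylases. They encode a cofactor of the DNA methyltransferases and a protein that binds methylated CpG.

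Direction differed between the genes (the plot of levels by region). Of the 16 regions, 11 were higher in PDGFRα+ than in CD137+ and 5 were lower, and 7 of the 11 higher ones lay in Jmjd1c. Jmjd1c (7 regions), Kdm2b (2) and Mbd2 (1) were higher in every region they held. Tet1, Tet3, Gadd45a and Dnmt3l were lower in their single regions, Tet2 had 1 region of each direction, and Kdm4c and Kdm6b held none. Over all 28141 listed regions 22.3% were higher in PDGFRα+. Without Jmjd1c, 4 of 9 regions were higher. Because the genes were chosen with these values known, nothing is read from the contrast with the background.

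**Figure D1:**
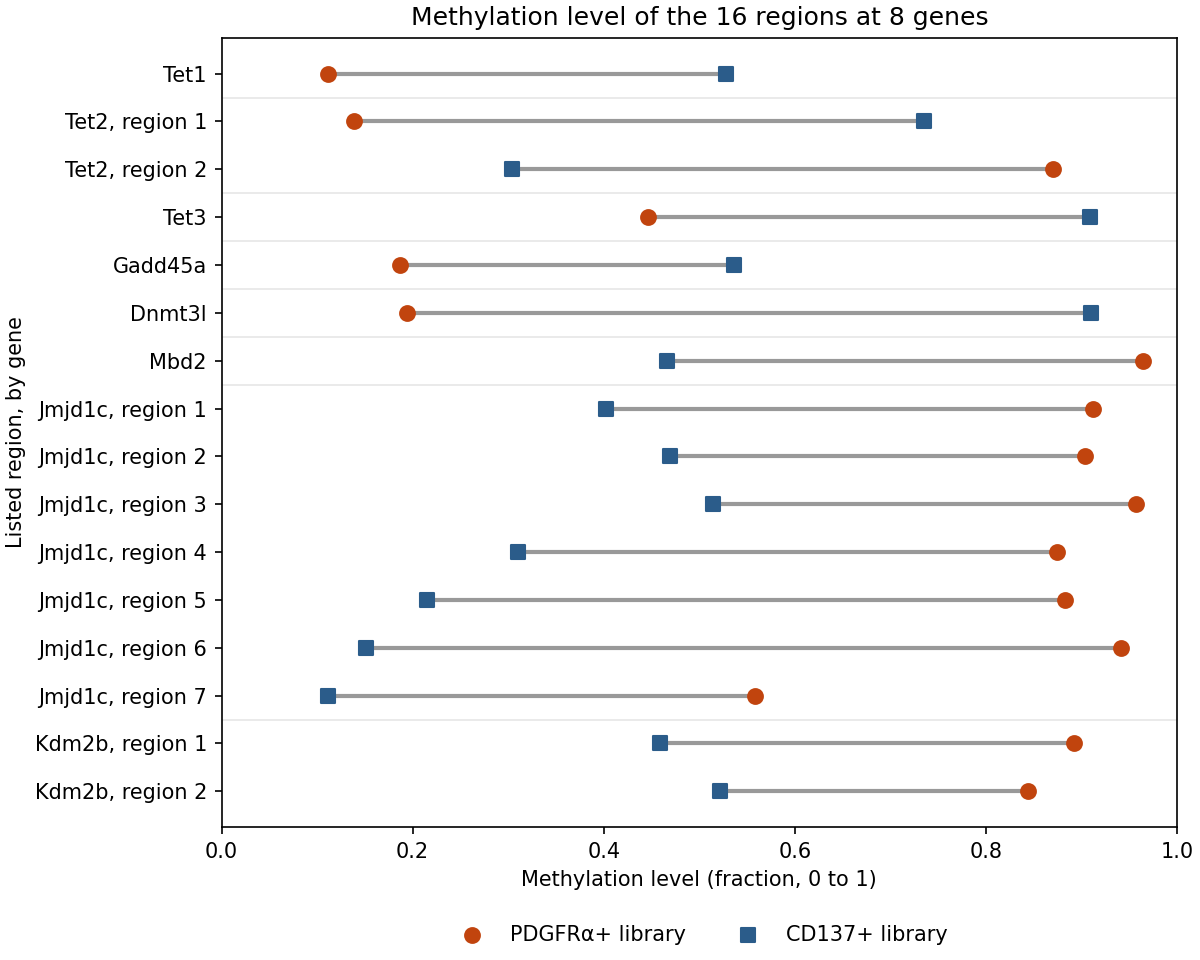
Methylation level (fraction, horizontal axis) of each of the 16 regions at 8 genes (vertical axis), with a circle for the PDGFRα+ library and a square for the CD137+ library, 1 library each. All 7 Jmjd1c regions have the circle to the right, at 0.559 to 0.957, while Tet1, Tet3, Gadd45a and Dnmt3l have it to the left, at 0.111 to 0.446.

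In the higher regions the level ranged between 0.559 and 0.964 in PDGFRα+ and between 0.112 and 0.522 in CD137+. They were split by direction, from a list the authors called as differing, so nothing is read from the separation of the ranges. Over all higher listed regions the level ranged between 0.166 and 0.990 in PDGFRα+ and between 0.0009 and 0.730 in CD137+. In the 5 lower regions it ranged between 0.111 and 0.446 in PDGFRα+ and between 0.528 and 0.910 in CD137+. The absolute difference was at least 0.5 in 7 of the 16 regions, against 58.4% of all listed regions. The median absolute difference was 0.481 at these genes and 0.522 over all listed regions. The regions held 6 to 18 cytosines over 66 to 323 bases, with a median of 8 cytosines, against 9 over all listed regions. They were denser in cytosines than the list as a whole, with 6.31 per 100 bases at the median against 4.62.

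**Figure D2:**
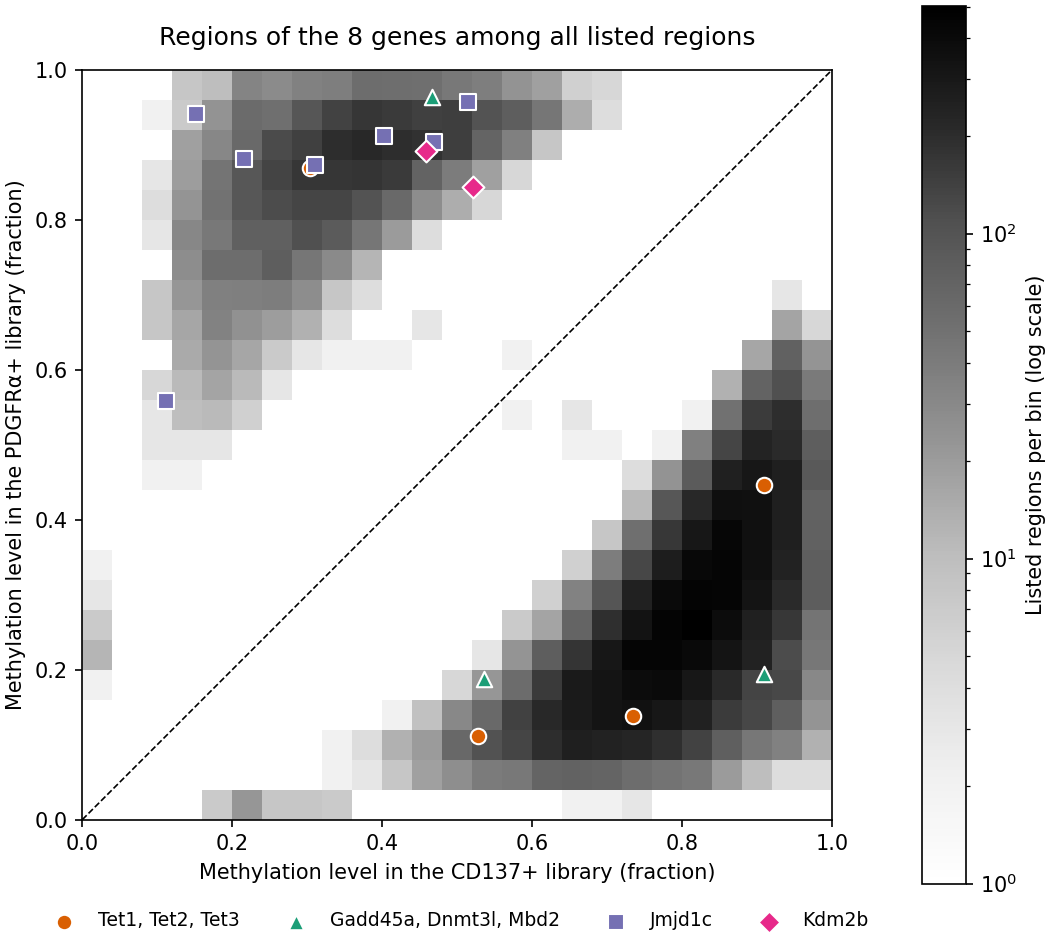
Level in the PDGFRα+ library (vertical axis, fraction) against the level in the CD137+ library (horizontal axis, fraction), with grey bins for the number of all 28141 listed regions on a log scale, coloured marks for the regions of the 8 genes, and a dashed line of equal levels. The 11 higher regions lie above the line and the 5 lower ones below it.

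Long genes often held a region. Of 21887 protein-coding genes, 29.5% had a listed region in the span or within 2 kb, and longer genes had one more often. Tet1, Tet2, Tet3, Jmjd1c, Kdm2b and Kdm4c have spans between 80 and 170 kb, and 5 of these 6 had a region, against 69.6% of the 1912 protein-coding genes in that length range. Of the 4 shorter genes, between 2 and 65 kb, 3 had a region, against 23.1% of genes in that range. All but 1 of the 16 regions lay inside the gene span. The exception lay 1447 bases outside Kdm2b, and the nearest region left out by the 2 kb limit lay 18861 bases from Gadd45a, at 0.763 in PDGFRα+ against 0.192 in CD137+.

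Promoters are shown for the 4 genes whose regions lay nearest to an annotated start site, so that the regions can be placed against them. The sequences come from RefSeq (GRCm38.p6, the assembly of mm10), run 5′ to 3′ on the strand of the gene, and cover 250 bases before a start site to 50 after it. Capitals mark CpG dinucleotides, the usual site of DNA methylation in mammals, found by searching for the letters CG, which read the same on both strands.
Jmjd1c, first start site, chr10:67126838-67127137, plus strand: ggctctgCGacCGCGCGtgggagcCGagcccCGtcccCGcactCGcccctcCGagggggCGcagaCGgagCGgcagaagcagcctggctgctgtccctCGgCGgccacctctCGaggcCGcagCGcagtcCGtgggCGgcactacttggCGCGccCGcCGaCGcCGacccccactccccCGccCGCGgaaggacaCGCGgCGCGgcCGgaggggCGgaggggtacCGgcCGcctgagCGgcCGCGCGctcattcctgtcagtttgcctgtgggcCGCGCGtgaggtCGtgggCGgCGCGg
Jmjd1c, second start site, chr10:67185500-67185799, plus strand: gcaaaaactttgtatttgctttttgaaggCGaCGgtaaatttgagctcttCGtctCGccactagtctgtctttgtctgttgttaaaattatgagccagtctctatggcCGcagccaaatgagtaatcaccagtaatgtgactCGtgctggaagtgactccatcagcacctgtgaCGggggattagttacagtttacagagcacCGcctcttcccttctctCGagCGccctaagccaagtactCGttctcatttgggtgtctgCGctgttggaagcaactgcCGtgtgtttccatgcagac
Kdm2b, start site at 122989099, chr5:122989050-122989349, minus strand: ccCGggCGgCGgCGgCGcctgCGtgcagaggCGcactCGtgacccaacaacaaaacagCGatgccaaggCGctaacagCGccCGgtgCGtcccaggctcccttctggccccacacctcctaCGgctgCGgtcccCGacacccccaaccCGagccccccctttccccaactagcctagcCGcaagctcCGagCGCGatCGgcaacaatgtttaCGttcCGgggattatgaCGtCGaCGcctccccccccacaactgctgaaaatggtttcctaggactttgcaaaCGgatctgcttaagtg
Gadd45a, chr6:67037358-67037657, minus strand: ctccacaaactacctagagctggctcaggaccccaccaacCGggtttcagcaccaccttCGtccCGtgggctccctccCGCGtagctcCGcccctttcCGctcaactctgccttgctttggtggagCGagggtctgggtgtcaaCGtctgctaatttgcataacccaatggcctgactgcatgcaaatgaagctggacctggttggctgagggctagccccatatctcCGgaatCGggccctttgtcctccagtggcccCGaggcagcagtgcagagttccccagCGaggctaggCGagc
Dnmt3l, first start site, chr10:78042037-78042336, plus strand: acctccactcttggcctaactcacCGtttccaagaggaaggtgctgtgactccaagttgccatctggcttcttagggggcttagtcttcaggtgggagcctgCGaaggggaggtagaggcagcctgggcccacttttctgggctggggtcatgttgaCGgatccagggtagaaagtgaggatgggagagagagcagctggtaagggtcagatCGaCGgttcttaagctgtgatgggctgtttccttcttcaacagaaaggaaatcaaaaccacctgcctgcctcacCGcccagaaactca

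The first Jmjd1c window holds 47 CpG, a number reached by 1.44% of all 32851 promoter windows of the same table, while the second holds 13, reached by 37.9%. The Kdm2b window holds 28 (14.2%), the Gadd45a window 14 (36.3%) and the Dnmt3l window 6 (56.4%), with a median of 7 over all windows. No listed region overlapped any of the 15 windows of these genes, and 1.42% of all windows overlapped one. The table has windows for 8 of the 10 genes. A region outside the list may still differ by less than the authors' limits, and levels there are not known.

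Jmjd1c encodes a JmjC protein of the KDM3 family, which is known for action on lysine 9 of histone H3. Whether the Jmjd1c protein itself has that activity was not measured here. Its span runs over 160.0 kb on the plus strand (chromosome 10, 67096351 to 67256326, mm10), and its 7 regions cover 0.828% of it. The mean level over the 7 regions was 0.861 in PDGFRα+ against 0.311 in CD137+, with a mean difference of 0.55 ± 0.135 (SD over regions, which are not replicates). Region 1 (67105011 to 67105247) was methylated at 0.912 in PDGFRα+, against 0.403 in CD137+, and region 2, only 73 bases further on (67105320 to 67105456), was at 0.904 in PDGFRα+ against 0.470 in CD137+. Region 3 (67113836 to 67114109), with the most cytosines of the 7 (17), had 0.957 in PDGFRα+ against 0.515 in CD137+. These 3 regions lay within 9098 bases, inside the span and at least 12979 bases before the first start site printed above, and all 3 were methylated at an intermediate level in CD137+. The span begins 30.7 kb before that start site and region 1 lies 8.66 kb inside it, and the promoter table used here has no window at that end of the gene. An intermediate level in all cells cannot be told apart here from a mixture of methylated and unmethylated cells.

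The other 4 Jmjd1c regions began after a gap of 68538 bases. Region 4 (67182647 to 67182819) lay 2931 bases before the second start site, at 0.874 in PDGFRα+ against 0.310 in CD137+. Region 5 (67202593 to 67202916) was at 0.882 in PDGFRα+ against 0.216 in CD137+, and region 6 (67205346 to 67205449) was at 0.941 in PDGFRα+ against 0.151 in CD137+. Region 6 had the widest difference of the 16, 0.79, and ranked 21st of the 6271 listed regions that were higher in PDGFRα+. Region 7 (67226172 to 67226253) stood apart from the other 6, with a level of 0.559 in PDGFRα+, below their 0.874 to 0.957, and 0.112 in CD137+. In CD137+ these 4 regions were at 0.112 to 0.310, below the 0.403 to 0.515 of the first 3, while in PDGFRα+ 6 of the 7 regions stood at 0.874 or above.

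The single direction did not extend to the surroundings of Jmjd1c. Within 100 kb on either side of the span, outside the 2 kb flank, lay 6 listed regions, 2 higher and 4 lower in PDGFRα+. The nearest, 26970 bases below the span, was higher (0.949 in PDGFRα+ against 0.356 in CD137+), and the next on the other side, 64018 bases above it, was lower (0.395 in PDGFRα+ against 0.949 in CD137+). Within 500 kb there were 24, of which 8 were higher.

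**Figure D3:**
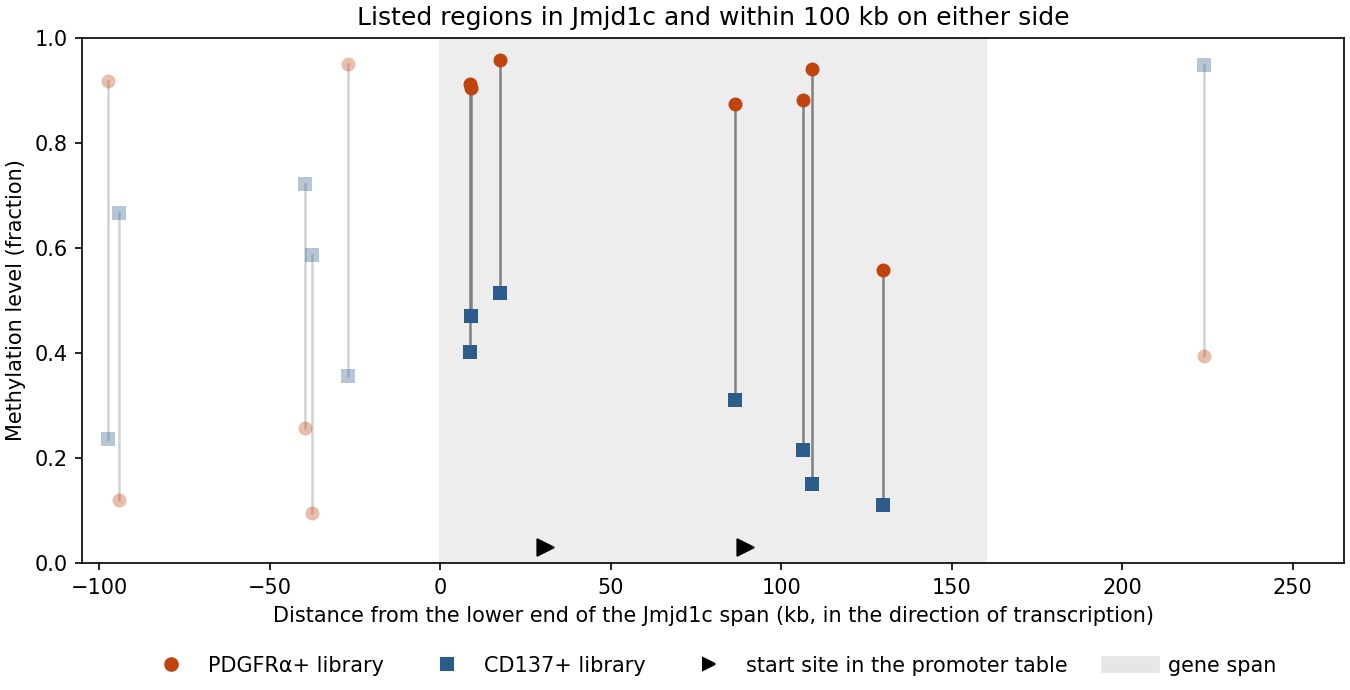
Methylation level (fraction, vertical axis) of listed regions against distance from the lower end of the Jmjd1c span (kb, horizontal axis), with a circle for PDGFRα+ and a square for CD137+, 1 library each, joined by a line, and start sites as triangles. All 7 regions in the shaded span have the circle on top, while the 6 faded regions outside it have 2 with the circle on top and 4 with the square on top.

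Genes with many regions of which every one was higher were few. Of 821 protein-coding genes with at least 5 regions, 1.22% (10 genes, Jmjd1c included) had them all higher in PDGFRα+, and Jmjd1c was chosen with this count known. Among the 1912 genes of 80 to 170 kb, 77 had at least 7 regions of either direction and 5 had at least 7 higher ones. Among the other 9 genes with all regions higher, those closest to Jmjd1c in mean difference were Foxc1 (5 regions, 0.54), Ikzf1 (5 regions, 0.53) and Serinc3 (5 regions, 0.51). The rest of the 9 were Hoxd3 (7 regions, 0.505), Ptprc (8 regions, 0.502), Tbx2, Itpkb, Ston2 and Tbx18, in order of closeness to Jmjd1c. Only Ikzf1, a lymphoid transcription factor gene, and Ptprc, the gene of the leukocyte antigen CD45, belong to the leukocyte genes described next. They were singled out for that single direction, and the 9 genes as a whole are not a leukocyte set. Of 24 leukocyte genes, themselves chosen after values were seen, 15 (62.5%) had a region, against 29.5% of all protein-coding genes, without matching for gene length. Of their 41 regions 27 (65.9%) were higher in PDGFRα+, against 22.3% of all listed regions, and 13 of those 27 were the regions of Ptprc (8) and Ikzf1 (5). The other 13 genes had 14 higher and 14 lower regions. By gene, 8 were mostly higher, 5 mostly lower and 2 split, and the lower ones were Runx3 (5 regions, mean difference -0.67), Cd3e (-0.64), Mrc1 (-0.55), Itgal (-0.55) and Vav1 (3 of 5 regions lower, -0.12). Their region levels ranged between 0.110 and 0.957 in PDGFRα+ and between 0.161 and 0.966 in CD137+, and 9 of the 24 genes, among them Itgam, Adgre1 and Lyz2, held none. Whether leukocytes in either library had a part in the Jmjd1c levels was not tested.

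Kdm2b encodes a demethylase of lysine 36 of histone H3 that also binds unmethylated CpG and brings a variant polycomb complex to CpG-rich promoters. Region 1 (chromosome 5, 122915982 to 122916234) was methylated at 0.893 in PDGFRα+, against 0.458 in CD137+, over 18 cytosines, the most of the 16 regions. It lay inside the gene, 15615 bases before the start site at 122900367. Region 2 (122990717 to 122990785) had 0.844 in PDGFRα+ against 0.522 in CD137+ over 7 cytosines, and its difference of 0.32 was the smallest of the 16. It lay 1618 bases before the start site whose window is printed above, and also inside A930024E05Rik, a long non-coding RNA gene, 1363 bases from that gene's own start site. Both regions were methylated at an intermediate level in CD137+ and at a high level in PDGFRα+.

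Kdm4c and Kdm6b held no listed region. Kdm4c, a demethylase gene for lysines 9 and 36 of histone H3, has a span of 163 kb, but lay in a stretch of chromosome 4 without listed regions over 1.66 Mb, the 77th longest of 28120 gaps between neighbouring listed regions. That stretch holds 14 protein-coding genes in all. For Kdm6b, which acts on lysine 27 of histone H3 and has a span of 21.9 kb, the nearest region lay 31926 bases away, at 0.135 in PDGFRα+ against 0.495 in CD137+. A gene without a listed region cannot be told apart from one with too few covered cytosines to be listed.

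The TET genes held 4 regions, 3 of them lower in PDGFRα+, the direction of 77.7% of all listed regions. Tet1 held 1 (chromosome 10, 62847522 to 62847588), at 0.111 in PDGFRα+ against 0.528 in CD137+, the lowest PDGFRα+ level of the 16. Tet3 held 1 (chromosome 6, 83392288 to 83392473), with 0.446 in PDGFRα+ against 0.909 in CD137+. Tet2 held 2, which lay 8540 bases apart on chromosome 3 and differed in direction. The region at 133517701 to 133517826 was methylated at 0.139 in PDGFRα+, against 0.735 in CD137+, and the one at 133526366 to 133526592 was at 0.870 in PDGFRα+ against 0.304 in CD137+. The mean over both was 0.504 in PDGFRα+ against 0.519 in CD137+. All 3 genes lie on the minus strand, and the regions lay inside the gene body, 17798 to 49205 bases after the start site used here. The Tet3 span runs on to 83457208, beyond its start site at 83441678, and the promoter table has no window at that end. Whether they fall in exons or introns is not given, because exons were not used here.

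Gadd45a encodes a stress-induced protein with a proposed role in active DNA demethylation. Its region (chromosome 6, 67035649 to 67035805) was methylated at 0.187 in PDGFRα+, against 0.536 in CD137+, over 14 cytosines. It began 1602 bases after the start site of a gene 2.31 kb long and covered 6.75% of it. Its difference of -0.35 was the smallest in size of the 5 lower regions. It also lay 794 bases outside E230016M11Rik, a long non-coding RNA gene, counted from the start site of that gene.

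Dnmt3l encodes a catalytically inactive partner of the de novo DNA methyltransferases, known mainly from germ cells and early embryos. Its region (chromosome 10, 78042894 to 78043071) was methylated at 0.194 in PDGFRα+, against 0.910 in CD137+. The difference of -0.72 was the widest of the 5 lower regions and within the top 4.39% of all 21870 lower listed regions. Of the 15 regions whose gene has a start site in the promoter table, it was the closest to one, 607 bases after the first one printed above. The same region lies inside Aire, an immune tolerance gene on the opposite strand, 539 bases from the start site of that gene, so the listed region lies at both genes.

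Mbd2 encodes a reader of methylated CpG in a nucleosome remodelling and deacetylase complex. Its region (chromosome 18, 70622596 to 70622705) was methylated at 0.964 in PDGFRα+, against 0.466 in CD137+, over 7 cytosines. The PDGFRα+ level was the highest of the 16 regions.

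Relatives of these genes, taken from lists written by role, showed both directions. Of 160 such genes 42 (26.2%) had a region, against 29.5% of all protein-coding genes, without matching for gene length, and 22 of their 75 regions (29.3%) were higher, against 22.3% of all listed regions. Of 23 histone lysine demethylase genes, 6 had a region, and 11 of 14 regions were higher, but 9 of those 11 were the regions of Jmjd1c and Kdm2b. The other 19 genes held 5 regions, 2 higher and 3 lower, with a median difference of -0.58 against -0.49 over all listed regions. Kdm3a, a paralogue of Jmjd1c, held 1 region with the opposite direction (chromosome 6, 71621733 to 71622204), at 0.191 in PDGFRα+ against 0.769 in CD137+. Kdm5b, a demethylase gene for lysine 4 of histone H3, was higher (0.947 in PDGFRα+ against 0.484 in CD137+), Kdm1a was lower (0.349 in PDGFRα+ against 0.952 in CD137+), and Phf2 had 1 region of each direction. Kdm3b, Hr, Kdm2a, Kdm4a, Kdm4b and Kdm6a held none.

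In the list of TET and active DNA demethylation genes, 6 of 20 had a region, and 4 of their 8 regions were higher, with a median difference of 0.05. Beside Tet1, Tet2, Tet3 and Gadd45a these were Apobec3, a cytidine deaminase gene with 2 higher regions (mean level 0.823 in PDGFRα+ against 0.308 in CD137+), and Parp1, a gene of DNA strand break repair (0.889 in PDGFRα+ against 0.437 in CD137+). Tdg, the glycosylase gene that removes oxidised methylcytosine, and Gadd45b and Gadd45g held none. Of 11 DNA methyltransferase and cofactor genes only Dnmt3l and Trdmt1, a tRNA methyltransferase gene, had a region, and Dnmt1, Dnmt3a, Dnmt3b and Uhrf1 did not. Trdmt1 was lower (0.181 in PDGFRα+ against 0.744 in CD137+), and the median difference of this list was -0.64. In the list of methyl-CpG binding proteins and their complex, 4 of 21 had a region. Beside Mbd2 these were Mbd5 (0.204 in PDGFRα+ against 0.774 in CD137+), Mta3 (0.403 in PDGFRα+ against 0.937 in CD137+) and Zbtb4 (0.277 in PDGFRα+ against 0.815 in CD137+), all lower in PDGFRα+, and the median over the 4 regions was -0.54.

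**Figure D4:**
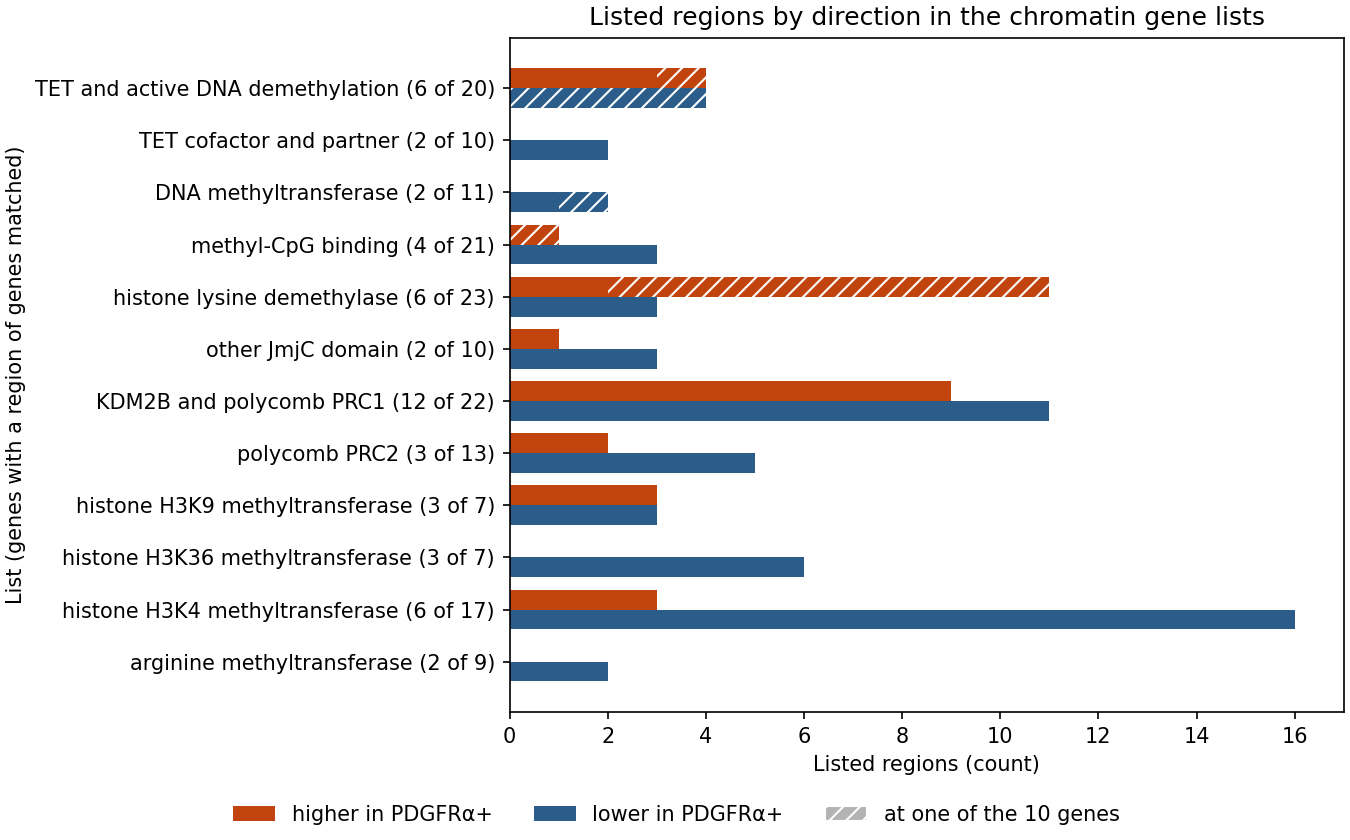
Number of listed regions (horizontal axis, count) higher or lower in the PDGFRα+ library for 12 lists of chromatin genes (vertical axis; the list with no region is left out), with the genes that have a region of the genes matched in parentheses, and hatching for regions at the 10 genes described here. The histone lysine demethylase list has 11 higher regions, 9 of them hatched, and the H3K4 methyltransferase list has 16 lower and 3 higher.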

How the data were processed

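Methylation was measured by bisulfite sequencing in 1 PDGFRα+ and 1 CD137+ library, grouped by their titles. Per the labels' protocols, DNA was sheared to about 350 bases, converted and amplified. The authors deposited 1 table of regions on mm10 (the build per the submitters' processing notes). Each library's level was deposited by the authors as a fraction (0 to 1), the difference as a score, the PDGFRα+ minus the CD137+ level, and the area statistic as a score. The numbers of cytosines and bases per region were deposited as whole numbers. The aligner, callers, thresholds, cytosine context and coverage were not given in the sources used here. Depth is therefore unknown, and regions that the authors' filter left out cannot be seen. Starts are printed as deposited, and whether they count from 0 or 1 is not shown by the table.

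Regions were assigned to RefSeq spans (GRCm38.p6) plus 2 kb on each side, if they shared a base, and start sites and strands came from the RefSeq promoter table, whose overlapping windows of opposite strands were reverse complements in 1677 of 1677 cases. All 10 genes and 170 of 171 symbols in 13 lists matched. The overlap search was tested on simulated data (200 spans, 0 wrong). No test between groups was made. The genes, lists and rules were chosen with earlier results of these data known. The named genes are the 10 genes with every region, up to 2 further genes per list by the largest area statistic, and the 3 genes most like Jmjd1c. Other genes named from the lists, the 24 leukocyte genes, and the remaining genes with all regions higher were chosen after values were seen. Alternatives covered minimum differences, minimum cytosines, the size of the area statistic, flanks, placement by midpoint and weighting. Python 3.11.15, numpy 2.4.6, pandas 2.3.3 and matplotlib 3.10.9 were used.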

Additional observations from a re-analysis of the deposited data

How the results depend on the processing

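With differences of at least 0.5 only, 3 of the 10 genes had a region (Tet2, Dnmt3l and Jmjd1c), with 7 regions, 5 of them higher in PDGFRα+, and 31 list genes had one, against 50 with all regions. With at least 10 cytosines, 3 genes (Gadd45a, Jmjd1c and Kdm2b) had 4 regions, 3 of them higher, and 24 list genes had one. With an absolute area statistic above the median, 4 genes (Tet2, Gadd45a, Jmjd1c and Kdm2b) had 7 regions, 5 of them higher, and 27 list genes had one. These settings keep fewer regions of the whole list, 16446, 13232 and 14070 of 28141. Of the regions kept, 20.3%, 22.0% and 21.3% were higher in PDGFRα+. The share of all protein-coding genes with a region was not computed under these settings. Since the 10 genes were chosen with their values known, nothing is read from the contrast. Without Jmjd1c, a setting chosen after seeing the data, 9 regions were left, 4 of them higher. The mean difference of Tet2, -0.02, became 0.15 when its 2 regions were weighted by length and -0.60 when only the larger statistic was kept, since its regions differ in direction. The 5 genes with 1 region have the same mean wherever that region is kept, so their values say nothing about stability. For Tet2, Jmjd1c and Kdm2b, 29 of 31 values of the mean difference moved by less than 0.1 and kept their sign. Many of these settings kept every region of the gene, so the mean could not move and shows nothing about stability. The Tet2 mean also averages 2 regions of opposite direction. Jmjd1c stood between 0.55 and 0.63 throughout. Differences of at least 0.4, at least 5 cytosines, flanks of 0, 5 and 10 kb and placement by midpoint left 7 or 8 genes with 14 to 16 regions. Where a gene kept no region under a setting, no value could be given. No paired analysis was possible because each group had 1 library and no test was made. Depth is unknown, so the precision of a level cannot be stated.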

Other observations

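Genes of the opposing enzymes, the histone methyltransferases, and of polycomb complexes were also listed. Of all listed regions 77.7% were lower in PDGFRα+, and of the 75 regions at list genes other than the 10 described above 53 were lower. Smyd3, a histone methyltransferase gene, was lower in 11 of 11 regions (mean level 0.386 in PDGFRα+ against 0.851 in CD137+), and Setd7 in 3 of 3 (0.307 in PDGFRα+ against 0.840 in CD137+). In all, 16 of the 19 regions of the H3K4 methyltransferase list were lower, 11 of them at Smyd3. The median difference over the 19 was -0.47, against -0.49 over all listed regions. Without Smyd3, 5 of 8 regions were lower. All 6 regions of the H3K36 methyltransferase list were lower, with a median of -0.41. They lay at Nsd1 (3 regions, 0.363 in PDGFRα+ against 0.697 in CD137+), Setd3 (2 regions, 0.025 in PDGFRα+ against 0.443 in CD137+) and Smyd2 (1 region). The smallest differences were at low levels, in 1 Nsd1 region (0.006 in PDGFRα+ against 0.193 in CD137+) and 1 Setd3 region (0.008 in PDGFRα+ against 0.219 in CD137+). The lists were written by assigned role, and the substrate of each protein, Setd3 included, was not checked. H3K9 methyltransferase genes had 3 higher and 3 lower regions, with 3 of the 4 regions of Prdm2 higher, and a median of -0.05. With 1 library per group these directions have no replicate check.

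Partners of KDM2B and other genes of polycomb complex PRC1 had a region in 12 of 22 cases (54.5%), against 29.5% of all protein-coding genes, a comparison that is not matched for gene length, with 9 regions higher and 11 lower and a median difference of -0.42. Bmi1, a PRC1 core gene, was higher (0.855 in PDGFRα+ against 0.395 in CD137+), Bcorl1 was higher in 2 of 2 regions (0.941 in PDGFRα+ against 0.336 in CD137+), and Bcor, its paralogue and a scaffold gene of the KDM2B complex, was lower (0.148 in PDGFRα+ against 0.929 in CD137+). Cbx2 was lower (0.468 in PDGFRα+ against 0.925 in CD137+). In the PRC2 list 3 of 13 genes had a region, Jarid2 (1 higher and 2 lower), Aebp2 (2 lower, 0.194 in PDGFRα+ against 0.671 in CD137+) and Lcor (1 of each), with a median of -0.49. JmjC genes outside the demethylase list had a region in 2 of 10 cases, Jarid2 and Jmjd4 (0.111 in PDGFRα+ against 0.657 in CD137+). Of the TET cofactor and partner list, Hmces (0.380 in PDGFRα+ against 0.795 in CD137+) and Cxxc5 (0.327 in PDGFRα+ against 0.896 in CD137+) were lower, of 10 genes. Of 9 arginine methyltransferase genes Prmt2 (0.244 in PDGFRα+ against 0.729 in CD137+) and Prmt7 (0.254 in PDGFRα+ against 0.876 in CD137+) were lower. The 4 methyltransferase genes of the H4K20 and H3K79 list held no region.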
